A study of Homo sapiens with 10 samples.

Results

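The genes described here were 6 genes tied to the pluripotent state, DNMT3B, SALL4, UTF1, ESRRB, TERT and POU5F1P4, in breast cancer cells (BCCs) sorted by an Oct4 reporter. They were chosen by name, and every probe set that the platform annotation gave to 1 of them alone was kept. This gave 8 probe sets of 25727 tested, and 6 genes of 12082 with a probe set of their own. No probe set shared with another gene carried a member's name. ESRRB and TERT had 2 probe sets each and the other 4 genes had 1 each.

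The cells were MDA-MB-231, a human basal-like breast cancer line grown from a metastatic site. All subsets carried pEGFP1-Oct3/4, which places GFP under the Oct4A promoter, and all were stable transfectants selected with neomycin. Sorting by GFP intensity gave Oct4hi BCCs (the top 5%, 4 arrays), Oct4med BCCs (between the extremes, 2 arrays) and Oct4low BCCs (the lowest 5% in the labels, 4 arrays); the study describes the Oct4low gate differently in another place. The labels call the arrays biological replicates, and the study describes RNA taken in separate experiments on separate sets of cells. Which array came from which experiment was not given in the sources used here. Cells were selected by a promoter reporter and not by Oct4 protein, a single line was used, and whether the transfectants were 1 clone was not given in the sources used here. The Oct4 gene itself was not analysed here.

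Pluripotent cells are held in an undifferentiated state by a network of transcription factors around Oct4, and many of the genes that mark this state are silent in most adult tissues. DNMT3B writes new DNA methylation and is abundant in embryonic stem cells, and TERT is the catalytic subunit of telomerase, which many cancer lines keep active. SALL4, UTF1 and ESRRB are nuclear proteins of the network: SALL4 is a zinc finger factor that recruits the NuRD complex, UTF1 is a chromatin-bound protein, and ESRRB is an orphan nuclear receptor known for its role in mouse embryonic stem cells. POU5F1P4 is a processed pseudogene of the Oct4 gene.

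Promoter sequences are shown for DNMT3B, the gene whose level differed between subsets, and for UTF1, which had the highest CpG count among the member windows. They are the 250 bases before the annotated start in RefSeq (GRCh38.p14, plus strand for both), chr20:32779602-32779851 and chr10:133229967-133230216. They run 5′ to 3′, and capitals mark CpG dinucleotides.
DNMT3B: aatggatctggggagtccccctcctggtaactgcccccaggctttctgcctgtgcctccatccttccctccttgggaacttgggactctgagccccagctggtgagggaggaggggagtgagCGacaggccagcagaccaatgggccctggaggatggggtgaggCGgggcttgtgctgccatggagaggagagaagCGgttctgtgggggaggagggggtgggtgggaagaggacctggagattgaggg
UTF1: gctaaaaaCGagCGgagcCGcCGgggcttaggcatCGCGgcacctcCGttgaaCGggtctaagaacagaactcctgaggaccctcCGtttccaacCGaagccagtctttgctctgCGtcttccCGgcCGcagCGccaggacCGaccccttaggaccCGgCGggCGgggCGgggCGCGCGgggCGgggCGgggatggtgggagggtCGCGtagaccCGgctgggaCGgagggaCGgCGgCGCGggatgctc
The DNMT3B window held 3 CpG and 64.0% GC, and 22.9% of 35116 RefSeq promoter windows of this length held fewer CpG. The UTF1 window held 32 CpG and 70.8% GC, and 90.5% of windows held fewer. The median window held 11 CpG and 58.0% GC. The DNMT3B start used here lies inside the annotated gene, downstream of its first base. Its CpG count and rank therefore describe this window and not the sequence before the first base of the gene.

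RefSeq windows were matched for 4 of the 6 symbols and came to 6 windows, 3 of them for ESRRB. The single TERT window held 28 CpG, more than 84.1% of windows, and the ESRRB windows held 3, 4 and 5. The octamer ATGCAAAT, the site of POU factors, was in none of the 6 windows and in 1.63% of all windows, both strands searched. The E-box CACGTG was in 1 member window, that of TERT, and in 6.34% of all windows. The GC box GGGCGG was in 2, those of TERT and UTF1, and in 42.6% of all windows. These are letter matches in the windows and not measured binding.

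Values were log2 intensities on Affymetrix U133 Plus 2.0 arrays, between 2.37 and 14.46, with array medians between 5.05 and 5.14. Arrays correlated at r = 0.991 to 0.995 within a subset and at 0.978 to 0.989 between subsets (computed over probe sets, whose values depend on each other). Of 10 markers of the line, 8 were measured and 6 had a mean at or above the array median, with CAV1 the highest; the VIM probe set kept here, an _x_at probe set, was the lowest. A control probe set for 28S ribosomal RNA (AFFX-M27830_5_at) averaged 13.57 in Oct4hi, 12.70 in Oct4med and 13.60 in Oct4low BCCs. The number of arrays limits precision, most of all for Oct4med BCCs.

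DNMT3B was the only one of the 6 genes to pass the test, in Oct4hi against Oct4low BCCs and in Oct4hi against Oct4med BCCs. The Oct4hi arrays read 8.49, 8.51, 8.51 and 8.53 log2 units. The Oct4med arrays read 7.71 and 7.86. The Oct4low arrays read 7.87, 7.95, 8.03 and 7.82. Every Oct4hi array lay above every array of both other subsets, and the Oct4med and Oct4low arrays overlapped. Means were 8.51 ± 0.01 in Oct4hi (SD, n = 4), 7.79 ± 0.10 in Oct4med (SD, n = 2) and 7.92 ± 0.10 in Oct4low BCCs (SD, n = 4).

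DNMT3B was 1.51-fold higher in Oct4hi than in Oct4low BCCs, a log2 difference of 0.59 (SE 0.08, 95% interval 0.41 to 0.77, limma adjusted p = 1.89e-04). An exact permutation test of this gene alone, two-sided, gave p = 0.029, the smallest that 4 arrays against 4 allow. That value follows from the lack of overlap between these arrays, which 21.3% of all probe sets share, and is not further support. Against Oct4med BCCs, DNMT3B in Oct4hi BCCs was 1.65-fold higher, a log2 difference of 0.72 (SE 0.10, 95% interval 0.51 to 0.94, limma adjusted p = 2.95e-04). The order of the means was therefore Oct4hi, Oct4low, Oct4med. The lower neighbours in that order did not differ beyond their spread: Oct4med minus Oct4low was -0.13 (95% interval -0.35 to 0.09, limma adjusted p = 0.459). Across the 3 subsets the limma F-test gave an adjusted p of 7.69e-05. The pairwise comparisons share arrays and do not support each other independently.

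The DNMT3B probe set was the only one of this gene in the table, and its suffix (_s_at) marks probes that several transcripts can share, so isoforms were not separated. In sorted bulk RNA, fewer cells with a transcript and less of it per cell cannot be told apart. Some marker lists also differed in summed level along this sort. Over all genes, 10.9% were higher and 8.43% lower in Oct4hi than in Oct4low BCCs. Summed levels are the log2 of summed intensities, so the brightest markers of a list weigh most. Of the 8 measured markers of the line, 2 were lower and 0 higher in Oct4hi than in Oct4low BCCs. Their summed level was 13.24 to 13.31 in Oct4hi, 13.28 to 13.30 in Oct4med and 13.45 to 13.50 log2 units in Oct4low BCCs. Of 12 luminal breast cell markers, 8 were measured, and 4 were lower and 0 higher in Oct4hi than in Oct4low BCCs. Their summed level was 9.46 to 9.59 in Oct4hi, 9.99 to 10.01 in Oct4med and 10.18 to 10.22 log2 units in Oct4low BCCs, with MLPH the highest marker and PGR the lowest. Of 12 erythroid markers, 4 were measured and 1, HBE1, was higher in Oct4hi than in Oct4low BCCs, and their summed level was 8.88 to 8.96 in Oct4hi, 8.91 to 8.94 in Oct4med and 8.47 to 8.60 in Oct4low BCCs. Of 8 leukocyte markers, 7 were measured, with 1 higher in Oct4hi than in Oct4low BCCs and the defining PTPRC the lowest. Their summed level overlapped between subsets, at 7.64 to 7.73 in Oct4hi, 7.61 to 7.92 in Oct4med and 7.66 to 7.86 in Oct4low BCCs. The erythroid and leukocyte counts of 1 do not stand apart from the shares over all genes. The part of these markers in the DNMT3B difference was not tested.

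**Figure D1:**
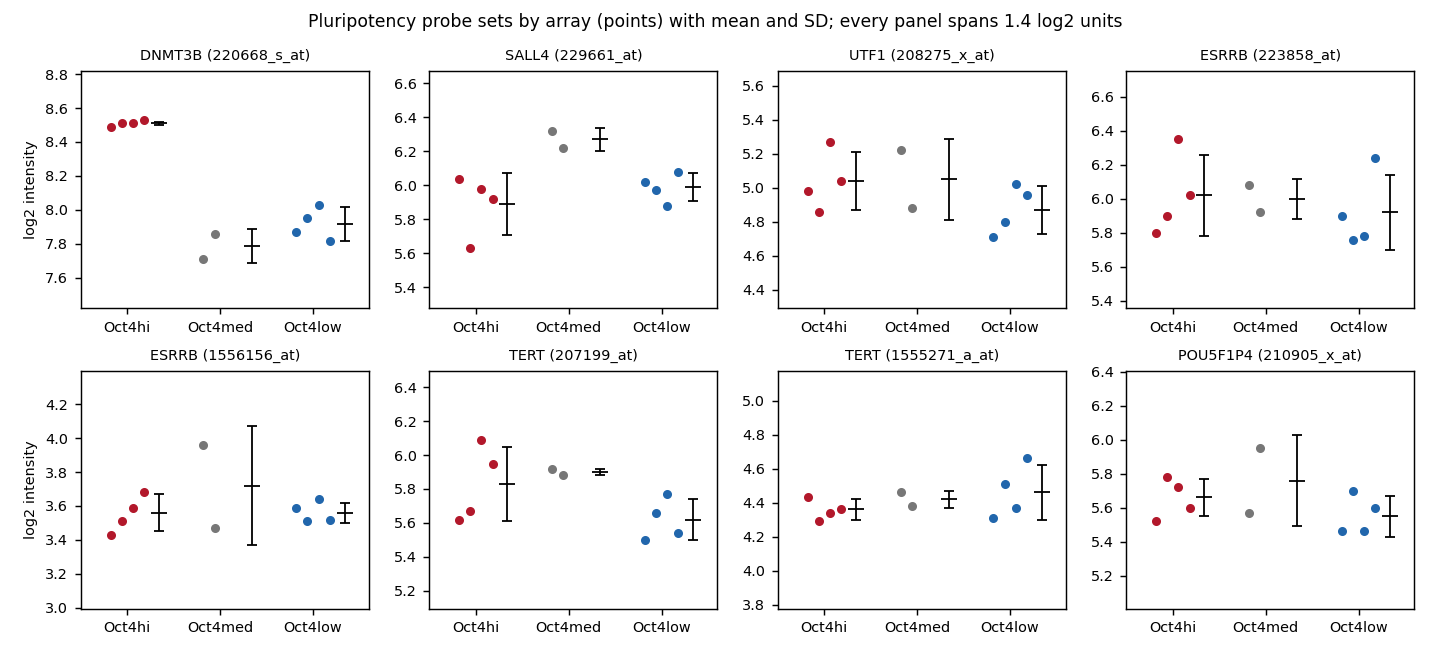
Log2 intensity of the 8 probe sets in each array, by subset (Oct4hi, Oct4med, Oct4low), with points for arrays and bars for mean and SD; panels share a span, not a level. In DNMT3B the 4 Oct4hi arrays sit between 8.49 and 8.53, above all arrays of the other subsets, while the other panels show overlap between Oct4hi and Oct4low arrays.

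TERT, the other enzyme, did not pass in any comparison. Its brighter probe set read 5.62, 5.67, 6.09 and 5.95 log2 units in Oct4hi BCCs. It read 5.92 and 5.88 in Oct4med BCCs. It read 5.50, 5.66, 5.77 and 5.54 in Oct4low BCCs. Both Oct4med arrays lay above all 4 Oct4low arrays, while the Oct4hi arrays overlapped both subsets. The difference was 0.21 for Oct4hi minus Oct4low (95% interval -0.02 to 0.45, limma adjusted p = 0.215). Oct4med minus Oct4low was 0.28 (95% interval -0.01 to 0.56, limma adjusted p = 0.22). Oct4hi minus Oct4med was -0.06 (95% interval -0.35 to 0.22, limma adjusted p = 0.791). The means ran Oct4med, Oct4hi, Oct4low, with no pair past the threshold.

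The dimmer TERT probe set was below the array median in all 10 arrays. It ranged over 4.29 to 4.43 in Oct4hi, 4.38 to 4.46 in Oct4med and 4.31 to 4.66 log2 units in Oct4low BCCs. Oct4hi minus Oct4low was -0.10 (95% interval -0.30 to 0.09), opposite in sign to the difference of the brighter probe set, and neither passed the test.

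SALL4 read highest in the Oct4med BCCs, and no difference passed the test. Its probe set read 6.04, 5.63, 5.98 and 5.92 log2 units in Oct4hi BCCs. It read 6.32 and 6.22 in Oct4med BCCs. It read 6.02, 5.97, 5.88 and 6.08 in Oct4low BCCs. Both Oct4med arrays were above every other array, and the Oct4hi and Oct4low arrays overlapped.

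Oct4hi minus Oct4med for SALL4 was -0.37 (95% interval -0.63 to -0.12), which missed the threshold in limma (adjusted p = 0.0594, unadjusted p = 0.00722). Filters on low or little-changing probe sets, or a further quantile normalization, took it past the threshold, with limma adjusted p = 0.0307 for the filter at the array median. With single arrays left out, the limma adjusted p ran between 0.0554 and 0.324. Oct4med minus Oct4low was 0.28 (95% interval 0.02 to 0.54, limma adjusted p = 0.171), and Oct4hi minus Oct4low was -0.09 (95% interval -0.30 to 0.12, limma adjusted p = 0.597). The means ran Oct4med, Oct4low, Oct4hi, and the limma F-test gave an adjusted p of 0.085.

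UTF1 was near the middle of the array, at or above the array median in 2 of 10 arrays. It read 4.98, 4.86, 5.27 and 5.04 log2 units in Oct4hi BCCs. It read 5.22 and 4.88 in Oct4med BCCs. It read 4.71, 4.80, 5.02 and 4.96 in Oct4low BCCs. All 3 subsets overlapped. Oct4hi minus Oct4low was 0.16 (95% interval -0.07 to 0.40, limma adjusted p = 0.365), Oct4med minus Oct4low was 0.18 (95% interval -0.11 to 0.47, limma adjusted p = 0.439) and Oct4hi minus Oct4med was -0.01 (95% interval -0.30 to 0.27, limma adjusted p = 0.961). The suffix of its probe set (_x_at) marks probes that can bind other sequences as well.

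ESRRB showed the widest spread within subsets among the probe sets at or above the array median in all 10 arrays. The brighter probe set read 5.80, 5.90, 6.35 and 6.02 log2 units in Oct4hi BCCs. It read 6.08 and 5.92 in Oct4med BCCs. It read 5.90, 5.76, 5.78 and 6.24 in Oct4low BCCs. The subsets overlapped, and the highest array of Oct4low BCCs, replicate 4, was above 3 of the 4 Oct4hi arrays. Oct4hi minus Oct4low was 0.10 (95% interval -0.17 to 0.37, limma adjusted p = 0.678), Oct4med minus Oct4low was 0.08 (95% interval -0.25 to 0.41) and Oct4hi minus Oct4med was 0.02 (95% interval -0.31 to 0.35). The dimmer probe set was below the array median in all 10 arrays, at 3.43 to 3.68 in Oct4hi, 3.47 to 3.96 in Oct4med and 3.51 to 3.64 in Oct4low BCCs. Its Oct4hi minus Oct4low difference was -0.01 (95% interval -0.23 to 0.22).

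POU5F1P4 read 5.52, 5.78, 5.72 and 5.60 log2 units in Oct4hi BCCs. It read 5.57 and 5.95 in Oct4med BCCs. It read 5.46, 5.70, 5.46 and 5.60 in Oct4low BCCs. The subsets overlapped, and the Oct4med arrays were farther apart than any of the Oct4hi arrays. Oct4hi minus Oct4low was 0.10 (95% interval -0.12 to 0.32, limma adjusted p = 0.578), Oct4med minus Oct4low was 0.21 (95% interval -0.06 to 0.47, limma adjusted p = 0.338) and Oct4hi minus Oct4med was -0.10 (95% interval -0.37 to 0.17, limma adjusted p = 0.636). Its probe set, with the same suffix as that of UTF1, can bind transcripts of near-identical copies of the Oct4 gene, so its values cannot be assigned to the pseudogene alone.

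**Figure D2:**
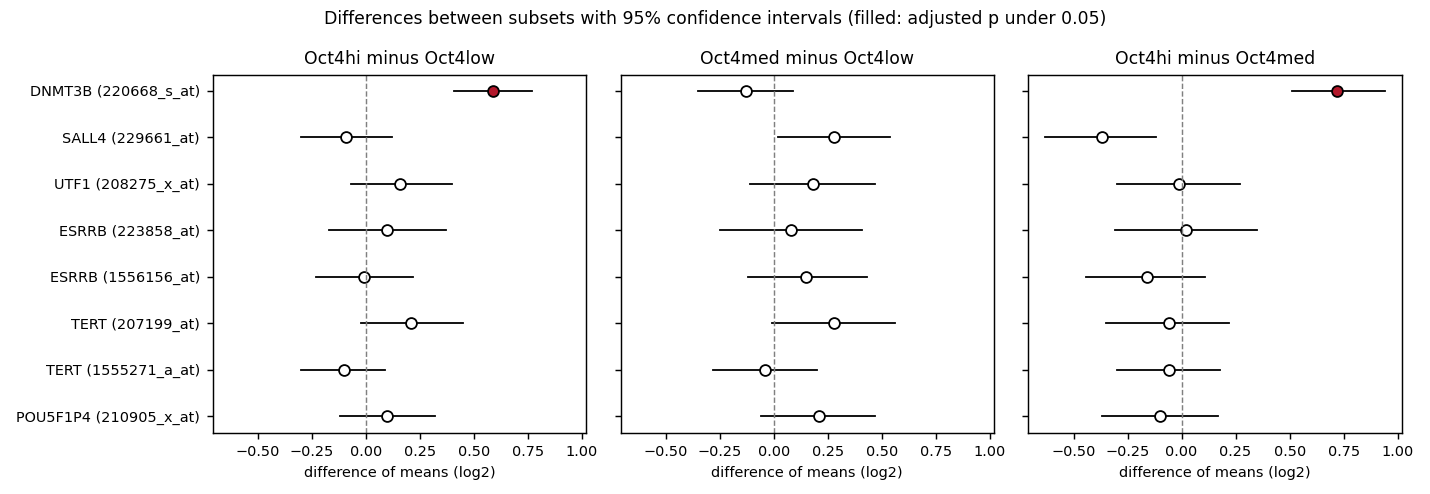
Differences of subset means in log2 units with 95% intervals for the 8 probe sets, in 3 panels (Oct4hi minus Oct4low, Oct4med minus Oct4low, Oct4hi minus Oct4med). Filled points passed an adjusted p of 0.05: only DNMT3B did, at 0.59 against Oct4low and 0.72 against Oct4med BCCs.

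Counted together, 1 of 8 probe sets was higher and 0 were lower in Oct4hi than in Oct4low BCCs at an adjusted p of 0.05 (limma), where 8.70% of all probe sets were higher, 8.80% were lower and 17.5% passed in either direction. In Oct4med against Oct4low BCCs limma called 0 of 8, where 1.80% of all probe sets were higher, 7.36% were lower and 9.16% passed in either direction; 1, SALL4, had an unadjusted p under 0.05, and the methods' test also called 0. In Oct4hi against Oct4med BCCs 1 of 8 was higher and 0 were lower in limma, where 7.52% of all probe sets were higher, 3.22% were lower and 10.7% passed in either direction. The F-test passed 1 of 8, where 22.0% of all probe sets passed. Counts of 0 or 1 among 8 probe sets do not stand apart from these shares.

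Arrays did not overlap for 1 of 8 probe sets in Oct4hi against Oct4low BCCs (21.3% of all probe sets), for 2 of 8 in Oct4med against Oct4low BCCs (32.0%) and for 2 of 8 in Oct4hi against Oct4med BCCs (34.3%). The median log2 difference of the members was 0.10, 0.17 and -0.06 in these comparisons, beside -0.01, 0.04 and -0.04 over all probe sets. A filter at the array median kept 6 of the 8 probe sets, without the dimmer ones of ESRRB and TERT.

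The genes around the members were read from 7 lists of 124 genes, of which 67 were measured, each by its brightest probe set. In Oct4hi against Oct4low BCCs 2 genes were higher and 3 lower, 7.46% of those measured, where 10.9% of all genes were higher, 8.43% were lower and 19.4% passed. In Oct4med against Oct4low BCCs 1 was higher and 6 were lower, 10.4%, where 2.19% of all genes were higher, 5.22% were lower and 7.41% passed. In Oct4hi against Oct4med BCCs 4 were higher and 1 lower, 7.46%, where 8.24% of all genes were higher, 3.77% were lower and 12.0% passed. Most calls in both comparisons with Oct4low BCCs were in the list of core pluripotency and reprogramming factors. In Oct4hi against Oct4med BCCs 2 of the 5 calls were in that list. It was the largest list, with 17 of the 67 measured genes. Whether calls gather in it beyond its size was not tested.

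**Figure D3:**
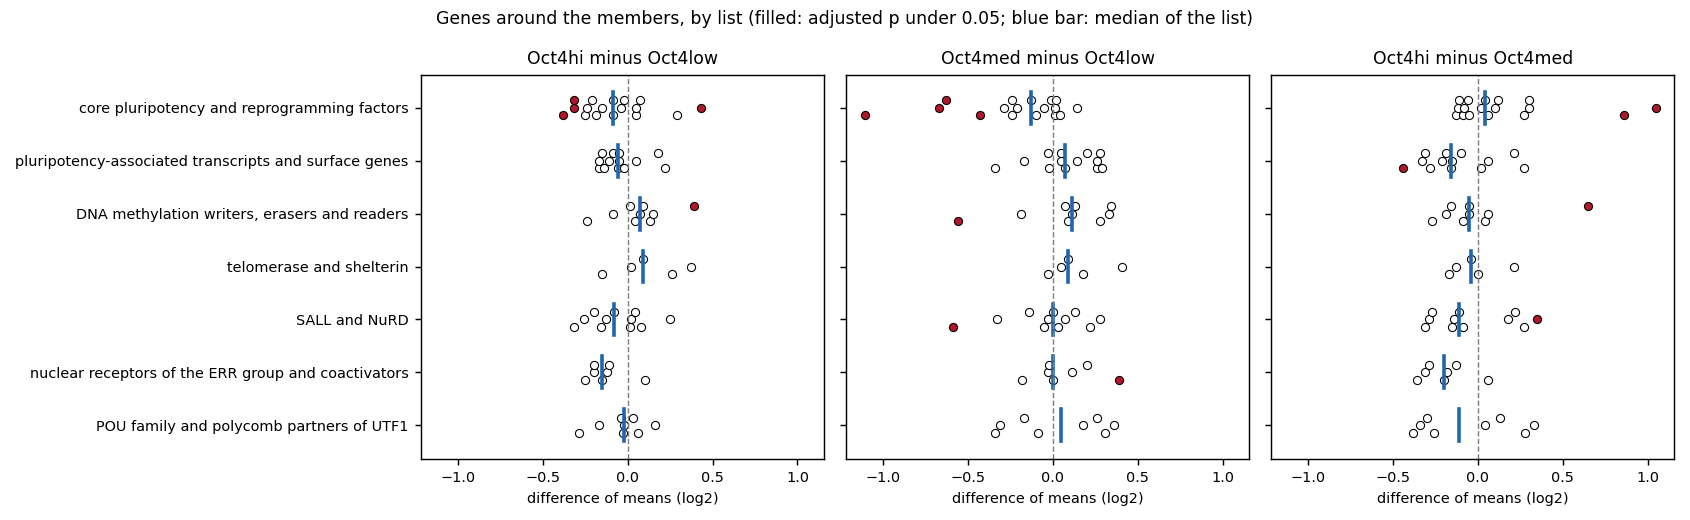
Differences of subset means in log2 units for the measured genes of 7 lists, 1 point per gene, in 3 panels (Oct4hi minus Oct4low, Oct4med minus Oct4low, Oct4hi minus Oct4med); blue bars mark list medians and filled points passed an adjusted p of 0.05. The core factors hold the largest differences, down to -1.11 in Oct4med minus Oct4low, and no gene of the telomerase and shelterin list passed.

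Of 25 core factors 17 were measured, and in Oct4hi against Oct4low BCCs 1 rose and 3 fell, with a list median of -0.09. Over all genes 10.9% were higher and 8.43% lower in that comparison. KLF5, a Krüppel-like factor that maintains mouse embryonic stem cells, read 9.06, 9.0, 8.94 and 9.01 log2 units in Oct4hi, 7.89 and 8.01 in Oct4med and 8.58, 8.59, 8.58 and 8.54 in Oct4low BCCs. The 3 subsets did not overlap in KLF5. It was 0.43 higher in Oct4hi than in Oct4low BCCs (limma adjusted p = 0.00179), 0.63 lower in Oct4med than in Oct4low BCCs (-0.63, limma adjusted p = 5.07e-04) and 1.05 higher in Oct4hi than in Oct4med BCCs (limma adjusted p = 3.69e-06). Its dimmer probe set gave 0.51, -0.64 and 1.15 in these comparisons, the Oct4med against Oct4low difference missing the threshold.

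KLF4, the Krüppel-like reprogramming factor, read 10.87, 10.88, 10.87 and 10.95 log2 units in Oct4hi, 10.56 and 10.63 in Oct4med and 11.23, 11.26, 11.32 and 11.26 in Oct4low BCCs. KLF2, its relative, read 8.85, 8.93, 8.96 and 8.91 in Oct4hi, 8.0 and 8.10 in Oct4med and 9.09, 9.11, 9.37 and 9.10 in Oct4low BCCs. Both were highest in Oct4low and lowest in Oct4med BCCs, with no overlap between subsets. KLF4 fell by 0.38 in Oct4hi against Oct4low BCCs and by 0.67 in Oct4med against Oct4low BCCs (limma adjusted p = 0.00412 and 2.45e-04). KLF2 fell by 1.11 in Oct4med against Oct4low BCCs and was 0.86 higher in Oct4hi than in Oct4med BCCs (limma adjusted p = 7.73e-06 and 1.10e-04), while Oct4hi minus Oct4low, at -0.25, missed the threshold (limma adjusted p = 0.0639). Their dimmer probe sets had the same signs.

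MYC, the growth-promoting reprogramming factor, read 12.33, 12.31, 12.38 and 12.24 log2 units in Oct4hi, 12.20 and 12.22 in Oct4med and 12.74, 12.60, 12.58 and 12.64 in Oct4low BCCs. It fell by 0.32 in Oct4hi and by 0.43 in Oct4med BCCs, each against Oct4low BCCs (limma adjusted p = 0.012 for both). TFAP2C, an AP-2 factor of germ cells and breast epithelium, fell by 0.32 in Oct4hi against Oct4low BCCs (limma adjusted p = 0.0156); its second probe set gave -0.23 and missed the threshold. NANOG, SOX2 and LIN28B, factors of the pluripotent network and its RNA-binding partner, averaged 3.32, 4.23 and 3.34 in Oct4hi and 3.56, 4.38 and 3.39 in Oct4low BCCs, all under the array medians, and none passed in any comparison.

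**Figure D4:**
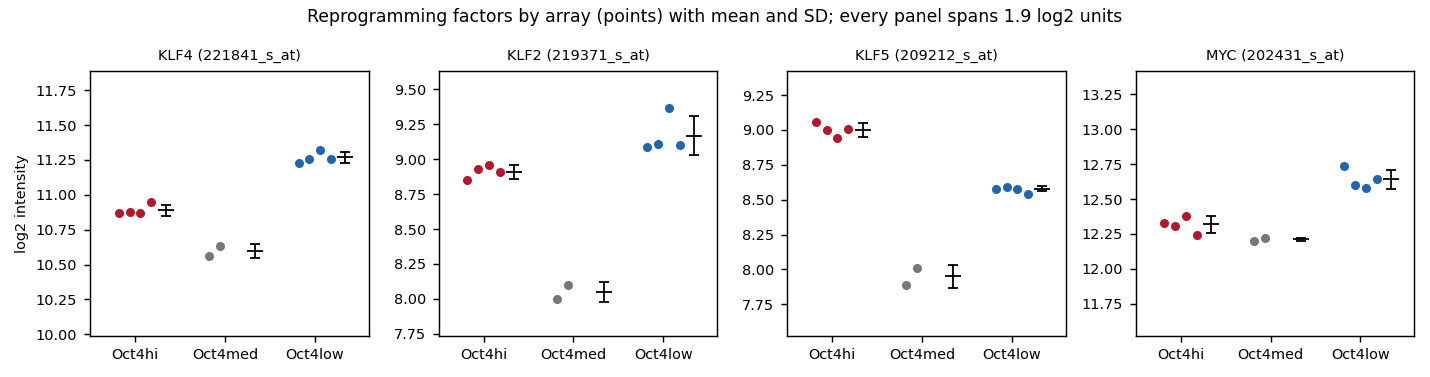
Log2 intensity of KLF4, KLF2, KLF5 and MYC (brightest probe set) in each array by subset, with points for arrays and bars for mean and SD. Oct4med arrays are the lowest in all 4 panels, and Oct4hi arrays are the highest only for KLF5.

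Among pluripotency-associated transcripts and surface genes, 13 of 25 were measured and 1 passed. PODXL, the sialomucin that carries stem cell surface epitopes, averaged 10.84 in Oct4hi and 11.28 in Oct4med BCCs, a fall of 0.44 on the log2 scale (-0.44, limma adjusted p = 0.0107). DPPA4, a chromatin protein of early embryos, averaged 4.14 in Oct4hi and 4.25 in Oct4low BCCs by its brighter probe set and passed in no comparison.

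DNMT3B was set beside 9 measured genes of 16 in DNA methylation. HELLS, a chromatin remodeller needed for normal DNA methylation, averaged 9.69 in Oct4hi, 9.62 in Oct4med and 9.30 in Oct4low BCCs. It was 0.39 higher in Oct4hi than in Oct4low BCCs (limma adjusted p = 0.00497), as was its dimmest probe set (0.32), while its other 2 probe sets gave 0.20 and 0.16 and missed the threshold. TDG, a glycosylase that removes oxidized methylcytosine, averaged 7.94 in Oct4hi, 7.29 in Oct4med and 7.85 in Oct4low BCCs. It fell by 0.56 in Oct4med against Oct4low BCCs and was 0.65 higher in Oct4hi than in Oct4med BCCs (limma adjusted p = 0.0174 and 0.00688). DNMT3A, the other de novo methyltransferase, averaged 7.52 in Oct4hi, 7.56 in Oct4med and 7.45 in Oct4low BCCs, and Oct4hi minus Oct4low was 0.07 (95% interval -0.15 to 0.28). TET1, a dioxygenase that oxidizes methylcytosine, averaged 4.63 in Oct4hi and 4.87 in Oct4low BCCs and passed in no comparison. DNMT1 and UHRF1 were not analysed here.

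Around TERT, 5 of 20 telomerase and shelterin genes were measured and none passed in limma, with list medians of 0.09, 0.09 and -0.04. Around SALL4, 11 of 16 SALL and NuRD genes were measured. MTA1, a NuRD subunit, was 0.35 higher in Oct4hi than in Oct4med BCCs (limma adjusted p = 0.046). RBBP4, a histone-binding NuRD subunit, was lower in Oct4med than in Oct4low BCCs by its brightest probe set (-0.59, limma adjusted p = 0.0166), while its other 2 probe sets gave 0.01 and 0.23. SALL2, the relative of SALL4, averaged 6.14 in Oct4hi and 6.34 in Oct4low BCCs (-0.20, 95% interval -0.40 to 0.00) and did not pass.

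Around ESRRB, 7 of 10 receptors and coactivators were measured. PPARGC1B, a coactivator of estrogen-related receptors, averaged 5.66 in Oct4med and 5.27 in Oct4low BCCs, a log2 difference of 0.39 (limma adjusted p = 0.0237), and no other gene of the list passed in any comparison. Around UTF1 and POU5F1P4, 8 of 16 POU and polycomb genes were measured and none passed in limma. JARID2, a cofactor of polycomb repressive complexes, averaged 8.67 in Oct4hi, 8.39 in Oct4med and 8.70 in Oct4low BCCs. Its Oct4med minus Oct4low difference was -0.31 (95% interval -0.53 to -0.10), and its limma adjusted p was 0.0659. ESRRA, DKC1, TERF1, SALL1 and EZH2 were not analysed here.

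Of 10220 single-gene probe sets with a mean at or above the overall median, those nearest to DNMT3B over the 10 arrays were KIF23, INPP4B and CCDC148. Nearness was the root mean square difference of log2 values, each minus its own mean, and was 0.0415, 0.0438 and 0.0450, while that of DNMT3B around its own mean was 0.322. KIF23, a mitotic kinesin, averaged 9.93 in Oct4hi, 9.19 in Oct4med and 9.35 in Oct4low BCCs. INPP4B, a phosphoinositide phosphatase, averaged 8.15 in Oct4hi, 7.43 in Oct4med and 7.59 in Oct4low BCCs. CCDC148 averaged 6.46 in Oct4hi, 5.70 in Oct4med and 5.87 in Oct4low BCCs. They were chosen for this pattern, so it is a description and was not tested.

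Other probe sets of the same genes were farther from DNMT3B or too dim to be compared. Those with a mean at or above the overall median were among the probe sets compared. Their values are therefore also a description and not independent support. The dimmer KIF23 probe set was 0.43 higher in Oct4hi than in Oct4low BCCs, with overlapping arrays, and 0.61 higher in Oct4hi than in Oct4med BCCs (limma adjusted p = 0.0485 and 0.0383). Oct4hi minus Oct4low was 0.25, 0.10 and -0.26 for the 3 dimmer INPP4B probe sets and 0.19 for the dimmer CCDC148 probe set, and none of these 4 passed in that comparison. Oct4hi minus Oct4med was 0.47, 0.08 and -0.43 for the same INPP4B probe sets, of which the first and the last passed in opposite directions (limma adjusted p = 0.0417 and 0.028). The last averaged 3.30 in Oct4hi and 3.73 in Oct4med BCCs, and the second 3.03 and 2.95, all under the array medians. For the dimmer CCDC148 probe set Oct4hi minus Oct4med was -0.05, which did not pass. The pattern was therefore shared by some but not all probe sets of these genes.

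**Figure D5:**
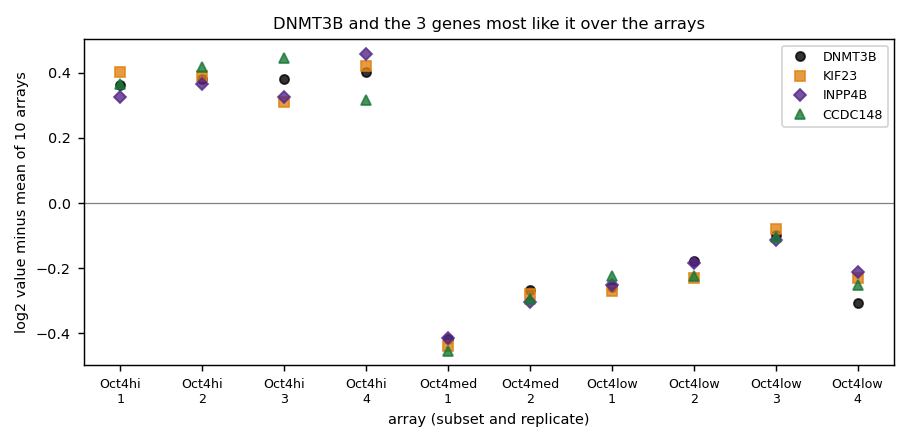
Log2 values of DNMT3B, KIF23, INPP4B and CCDC148 in each of 10 arrays, minus each gene's own mean over the arrays; the order is Oct4hi, Oct4med and Oct4low BCCs with replicate numbers. All 4 genes lie above 0 in the 4 Oct4hi arrays and below 0 in the 6 other arrays.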

How the data were processed

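Total RNA of the 10 sorted samples (100 ng each) was hybridized to Affymetrix U133 Plus 2.0 arrays. According to the methods of the study, the authors loaded intensities, already corrected for background, in BRB-Array Tools, took log2, normalized by RMA, and filtered features near background or with little variation. The deposited table holds 25750 probe sets in log2 intensity, the number that the methods give after these filters. The variation filter as read here keeps 11543 of the 25727 tested, so this reading may differ from the filter the authors applied. The genome build behind the annotation was not given in the sources used here.

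Without 23 control probe sets, 25727 were fitted with a mean per subset over 10 arrays (limma 3.58.1, R 4.3.3, moderated test, two-sided, Benjamini-Hochberg over all 25727, threshold 0.05). The fit was tested on simulated data. Gene symbols came from the platform annotation: 18682 probe sets carry 1 symbol, 799 several and 6246 none. Genes in lists were represented by their brightest probe set.

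Named genes were all member probe sets, a set list of pluripotency genes, up to 4 genes with the largest changes past the threshold per list and comparison, and the 3 genes nearest to a member that passed the F-test; for marker lists the highest and lowest marker, with HBE1 and PTPRC among them. The members and lists were chosen with earlier results of these data known. Alternatives were filters, scalings, weights, a trended prior, a t-test with pooled variance and no moderation, a replicate block and leaving out each array. The study's own test used a random variance model and was not run here. Replicate numbers were not taken to pair arrays.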

Additional observations from a re-analysis of the deposited data

Results flagged for a closer look

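None of the 6 member genes had an array far from the rest of its group. Of 60 groups of 4 arrays tested, 6 had an end array whose gap to its neighbour, divided by the range of the group, passed Dixon's 95% critical value; chance gives about 1 in 20. KLF2 in Oct4low BCCs gave 0.937, with replicate 3 at 9.37 log2 units and the others at 9.09 to 9.11. SALL2 in Oct4low BCCs gave 0.930, with replicate 3 at 6.24 and the others at 6.37 to 6.38. KLF4 in Oct4hi BCCs gave 0.915, with replicate 4 at 10.95 and the others at 10.87 to 10.88. PODXL in Oct4hi BCCs gave 0.854, with replicate 3 at 10.78 and the others at 10.85 to 10.87. DNMT3A in Oct4low BCCs gave 0.843, with replicate 3 at 7.18 and the others at 7.50 to 7.56. KLF5 in Oct4low BCCs gave 0.836, with replicate 4 at 8.54 and the others at 8.58 to 8.59. Oct4low replicate 3 was the end array in 3 of these 6 groups.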

How the results depend on the processing

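DNMT3B kept its direction and its side of the threshold in every alternative that held its probe set, the t-test without moderation included. Oct4hi minus Oct4low ranged over 0.55 to 0.63 (limma adjusted p 1.65e-08 to 0.00116). Oct4hi minus Oct4med ranged over 0.59 to 0.80 (limma adjusted p 2.52e-08 to 0.0119). Leaving out single arrays gave 0.56 to 0.63 and 0.65 to 0.80, and left the counts at 1, 0 and 1 of 8 probe sets. Without _x_at and _s_at probe sets, which removes DNMT3B, 0 of 5 members passed in Oct4hi against Oct4low BCCs, in Oct4hi against Oct4med BCCs and in the F-test. SALL4 passed in Oct4hi against Oct4med BCCs, making 2 members, with the filter at the array median (-0.37, adjusted p = 0.0307), the variation filter (-0.37, adjusted p = 0.0444) and quantile normalization again (-0.40, adjusted p = 0.0358), and the F-test count was 2 with the first and the last of these. The list counts of 5, 7 and 5 genes became 12, 11 and 8 of 110 probe sets when all probe sets were counted. They became 9, 12 and 11 of 41 genes with the median filter. Over all probe sets, 4502, 2357 and 2763 of 25727 passed unfiltered, and 4837, 2865 and 3710 of 13883 with the median filter. In Oct4hi against Oct4med BCCs the variation filter called 2762 of 11543, and quantile normalization again 2769 of 25727. The cause of these shifts was not tested.

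With a block on the replicate numbers, the member counts stayed at 1, 0 and 1. DNMT3B then gave 0.59 (limma adjusted p = 8.06e-04) and 0.72 (limma adjusted p = 0.00326). The experiment of each array was not given, so this block cannot show whether the differences hold within experiments. The block moved the calls over all probe sets to 4098 (4502 without it) for Oct4hi against Oct4low, 1506 (2357) for Oct4med against Oct4low and 1580 (2763) for Oct4hi against Oct4med BCCs. Deviations of same-numbered Oct4hi and Oct4low arrays correlated at 0.17, -0.12, -0.05 and -0.07, so the numbers were not taken as pairs. Differently numbered arrays reached 0.29 (Oct4hi replicate 4 with Oct4low replicate 2) and 0.23 (Oct4hi replicate 3 with Oct4low replicate 4). Oct4hi replicate 2 with Oct4low replicate 3 gave 0.16. With the 0.17 of the arrays numbered 1, each Oct4hi array thus had its highest value with a different Oct4low array. Others went down to -0.21. Pairing of arrays under other numbers was not tested, and the main fit takes no pairing into account. Scaling moved the share of higher calls: quantile normalization gave 35.5% higher for Oct4med against Oct4low (19.6% as deposited) and 54.5% for Oct4hi against Oct4med (70.0% as deposited), and a common median gave 80.3% for Oct4hi against Oct4med. Without Oct4med replicate 1, calls over all probe sets dropped to 1083 and 812 in the comparisons with Oct4med BCCs. Signals near or below the array median limit what could be seen for UTF1 and the dimmer ESRRB and TERT probe sets. All 4 measured erythroid markers and 4 of 7 measured leukocyte markers also averaged at or above the array median. Whether the line expresses these markers was not tested, and a mean above the median was not read as expression here. Whether SALL4, POU5F1P4 and the brighter ESRRB and TERT probe sets stood above background was not tested.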
